A study of Homo sapiens with 4 samples.

Results

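The peaks of chromosome 6 were all rows of the HL60 and HL60/MX2 peak lists placed on that chromosome, 1005 of 16192 listed peaks. They were 542 of the 8070 peaks in HL60 and 463 of the 8122 peaks in HL60/MX2. HL60 (HL-60 in the labels, genotype WT) is a human acute myeloid leukemia cell line, and HL60/MX2 is its derivative selected with mitoxantrone, labelled only as drug-resistant cells. Both lines grew in the same serum-supplemented RPMI-1640 medium with antibiotics. The mRNA was isolated with oligo(dT) beads, decapped, cut into fragments and enriched with an antibody against N7-methylguanosine (m7G). How complete the decapping was cannot be read from the lists, so internal m7G and remaining cap signal cannot be told apart. Each line was represented by 1 enriched library, so no test between the lines could be made, and the intervals below are exact Clopper-Pearson 95% intervals that cover counting error only. The lists hold no expression levels, so the identity of the lines could not be checked against marker genes, and fewer transcripts and less methylation per transcript cannot be told apart. The input libraries were not analysed here.

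Internal m7G is a methylated guanosine found inside tRNA, rRNA and mRNA, and part of it is placed by the enzyme METTL1 with its partner WDR4. The short arm of chromosome 6 carries the major histocompatibility complex (MHC), the most gene-dense stretch of the chromosome. Its class I genes encode the molecules that show peptides to cytotoxic T cells, its class II genes encode those that show peptides to helper T cells, and the class III block between them holds complement and inflammatory genes. The extended class I end carries clusters of histone, zinc finger, butyrophilin and olfactory receptor genes. The region was taken as 25 to 34 Mb of hg19.

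Of the 3 places that both lists share inside the MHC region, 2 are shown first. Each line gives the reference sequence (GRCh37) of the central 30 nt of the shared stretch, or all of a shorter one, on the strand of the gene. Capitals here and in the following sets mark the words of the m7G motifs that the study drew from these same lists, so their shares are a description. The GGA words were GGAAA or with a final G, written GGAAG, and the CTG words were CTGGA or with a final G, written CTGGG, besides the word CTGTA or with a final G, written CTGTG. They were read on the strand of the gene only, a GGA word can overlap the end of a CTG word, and these sequences held none.
MUCL3 (chr6:30917233-30917262, plus strand): ccaatgagaacaccgcaccattcccagcag
HLA-DOB (chr6:32782354-32782378, minus strand): tgcaaccagaggtgacagtgtaccc

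The next set comes from the overlaps on chromosome 6 whose start and end were the same in both lists, 4 in all, of which 3 are shown. Those shown lay in DST, which encodes the cytoskeletal linker dystonin, in REV3L, the catalytic subunit of a translesion DNA polymerase, and in the histone deacetylase gene HDAC2. HDAC2 is printed whole.
DST (chr6:56357137-56357166, minus strand): cctaaaatattttagtcagaaacaagatgt
REV3L (chr6:111654434-111654463, minus strand): tctaattatggagcctgaatcccgcttcta
HDAC2 (chr6:114283531-114283558, minus strand): ccttcaccctgccatttctagtgaatct

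The peaks of highest score inside the MHC region are shown to let the strongest calls of the lists be read. In HL60 these were in GABBR1, a subunit of the GABA-B receptor, HLA-DMA, the alpha chain of the class II peptide-loading factor HLA-DM, and the zinc finger gene ZKSCAN3. In HL60/MX2 they were in MDC1, a mediator of the DNA damage checkpoint, TSBP1, a gene named for its expression in testis, and GPX6, a glutathione peroxidase.
GABBR1 in HL60 (chr6:29591119-29591148, minus strand): actctttgaaaagtggggCTGGAAGaagat
HLA-DMA in HL60 (chr6:32920172-32920201, minus strand): aaagaagagggattattttatgcagttatg
ZKSCAN3 in HL60 (chr6:28317753-28317782, plus strand): gtgaatcggcgtcggccttccaCTGTGggg
MDC1 in HL60/MX2 (chr6:30675809-30675838, minus strand): ccagaaagacagacagatgtgacaggagag
TSBP1 in HL60/MX2 (chr6:32299811-32299831, minus strand): tgcaaactccaggacctattg
GPX6 in HL60/MX2 (chr6:28471520-28471549, minus strand): tttctccttaattctcctttattcccctgc

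Over the central 30 nt of all peaks at least that long, a GGA word was found in 7 of 54 MHC peaks of HL60 (12.96%, 5.37-24.9%) and in 5 of 57 of HL60/MX2 (8.77%, 2.91-19.3%). On the rest of chromosome 6 the shares were 14.4% (11.3-18.1%) in HL60 and 9.70% (6.89-13.2%) in HL60/MX2. Tiles of 30 nt cut from the protein-coding exons held a GGA word in 9.56% of the MHC region and 9.03% of the rest. A CTG word was found in 22.2% of the MHC peaks of HL60 and 15.8% of those of HL60/MX2, against 20.5% of the MHC tiles. The intervals of the MHC peaks held the share of the tiles for each of these groups of words, and only the HL60 peaks of the rest of the chromosome lay above their tiles, for the GGA words.

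Chromosome 6 held 99.8 HL60 peaks per Mb of protein-coding exon and 85.3 HL60/MX2 peaks, over 5.43 Mb of merged exon. All chromosomes together held 74.3 and 74.7 peaks per Mb. Among the 22 autosomes, the HL60 density of chromosome 6 ranked 2 and its HL60/MX2 density ranked 4. Of the peaks of both lists on chromosome 6, 46.1% (43.0-49.2%) came from HL60/MX2, against 50.2% (49.4-50.9%) over all chromosomes. The HL60/MX2 count divided by the HL60 count was 0.854, the third lowest among the autosomes, of which 10 had fewer peaks in HL60/MX2. The exons of chromosome 6 were 45.2% GC, the sixth lowest value among the autosomes.

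**Figure D1:**
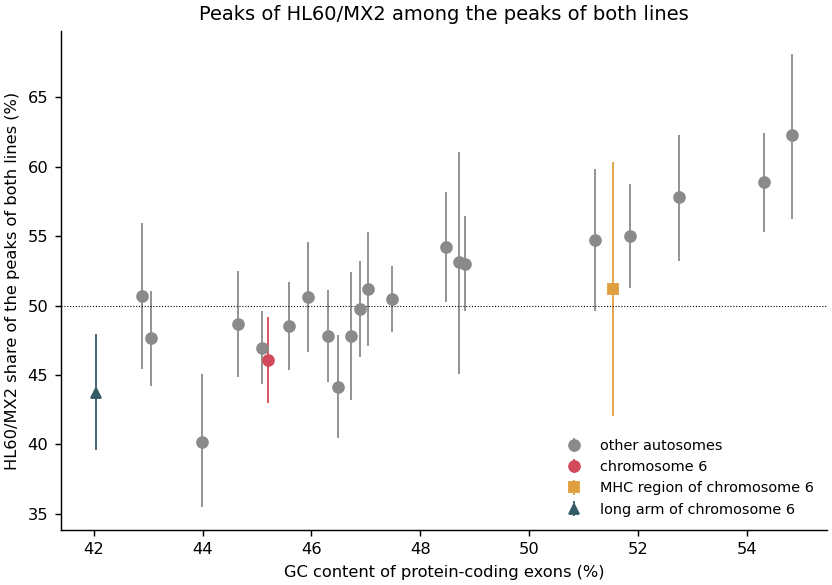
Each point is an autosome or a stretch of chromosome 6, with the GC content of its protein-coding exons (%) on the horizontal axis and the HL60/MX2 share of the peaks of both lines (%) on the vertical axis. Bars are exact Clopper-Pearson 95% intervals and the dotted line marks equal numbers. Chromosome 6 lies at 45.2% GC and 46.1%, its long arm at 42.04% GC and 43.7%, and the MHC region at 51.5% GC and 51.2%.

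The lower number in HL60/MX2 came from the long arm. There, 314 HL60 and 244 HL60/MX2 peaks were listed, which is 70 of the 79 fewer peaks of the chromosome, and the HL60/MX2 share was 43.7% (39.6-48.0%). The short arm outside the MHC region held 168 and 156 peaks, a share of 48.1% (42.6-53.7%). The MHC region held 60 HL60 and 63 HL60/MX2 peaks, a share of 51.2% (42.05-60.3%). The interval of the long arm lay below the share over all chromosomes, and those of the MHC region and of the remaining short arm held it. Exon GC rose in the same order, from 42.04% on the long arm to 47.6% on the short arm outside the MHC region and 51.5% in it. The peak names carry running numbers that advanced by 356.5 per Mb of chromosome 6 in HL60 and by 287.9 in HL60/MX2, and by 313.3 and 272.4 in the MHC region. What these numbers count is not stated in the lists, and their part in the result was not tested.

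By windows of 10 Mb from the start of the short arm, HL60 had more peaks in 12 of 18 windows, HL60/MX2 had more in 5, and 1 was equal. Densities ran from 42.3 to 174 peaks per Mb of exon in HL60 and from 33.03 to 120 (119.7) in HL60/MX2. Window 8, from 70 to 80 Mb, was the highest of HL60, with 41 peaks against 22 in HL60/MX2. Its HL60/MX2 share of 34.9% (23.3-48.0%) was the only one with an interval wholly below the share over all chromosomes, and no window lay wholly above it. The 18 intervals were read without correction for their number, and they count peaks of the same gene as independent. Window 8 had a peak in 15 genes in HL60 and in 14 in HL60/MX2.

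In window 8 the peaks were led by COL12A1, a fibril-associated collagen, with 6 HL60 peaks and 1 HL60/MX2 peak, and by CD109, a cell-surface protein held by a lipid anchor, with 5 and 2. MYO6, which encodes myosin VI, had 4 and 3. The COL12A1 peaks of HL60 had scores from 101.5 to 394.3, and its HL60/MX2 peak (chr6:75818815-75818883) scored 101.1. None of the 3 genes had a place in common between the lists, and their peaks lay at separate positions in each. Window 7, from 60 to 70 Mb, had the lowest ratio, with 8 HL60 and 2 HL60/MX2 peaks. It lies partly in the assembly gap of the centromere (chr6:58780167-61880166). EYS, a gene of photoreceptors, had 4 HL60 peaks scoring from 143.7 to 374.9 and none in HL60/MX2. The adhesion receptor gene ADGRB3 had 2 and 1 in that window, and LGSN had 1 and 0.

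The highest ratios were in window 18, at the end of the long arm, with 2 and 3 peaks, and in window 10, from 90 to 100 Mb, with 11 and 16. In window 18, ERMARD had a peak in each list, the Notch ligand gene DLL1 had 1 in HL60, and PHF10, a subunit of the BAF chromatin remodelling complex, and TBP, the TATA-binding protein, had 1 each in HL60/MX2. The PHF10 peak at the start codon (chr6:170123941-170124106) scored 1525.2, among the 6 highest of the HL60/MX2 peaks of the chromosome. In window 10, ANKRD6 and USP45, a deubiquitinase gene, each had 2 peaks in both lists, and the lymphoid transcription factor gene BACH2 had 1 in each.

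**Figure D2:**
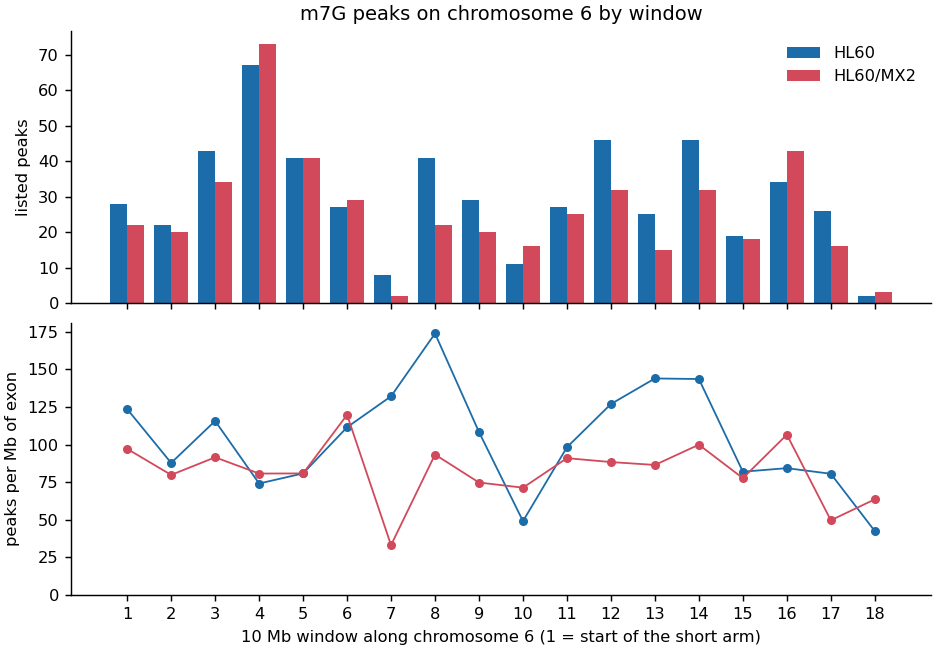
Listed peaks (upper panel) and peaks per Mb of protein-coding exon (lower panel) in 18 windows of 10 Mb along chromosome 6, for the 1 library of HL60 (blue) and the 1 library of HL60/MX2 (red). The lists part most in window 8, with 41 and 22 peaks, while HL60/MX2 has the higher bar in windows 4, 6, 10, 16 and 18, by 9 peaks at most (34 and 43 in window 16).

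Of the 1048 protein-coding genes of chromosome 6, the HL60 list had a peak in 321 (30.6%, 27.8-33.5%) and the HL60/MX2 list in 317 (30.2%, 27.5-33.1%). Over the whole annotation, these shares were 26.5% for HL60 and 28.6% for HL60/MX2. Thus HL60/MX2 had fewer peaks but nearly the same number of genes with a peak. Both lists had a peak in 153 genes of chromosome 6 (14.6%, background 11.9%), in HL60 only in 168 (16.03%, background 14.5%) and in HL60/MX2 only in 164 (15.6%, background 16.7%).

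The genes with the most peaks were long. DST, with 48142 bp of exon, had 8 HL60 and 4 HL60/MX2 peaks, and SYNE1, which encodes the nuclear envelope protein nesprin-1, had 5 in each list over 47523 bp. DNAH8, an axonemal dynein heavy chain, had 7 and 4 over 15348 bp, and PKHD1, which encodes fibrocystin, had 6 and 2 over 17443 bp. The next were ARID1B, a BAF subunit, with 4 and 3, the kinesin gene KIF6 with 4 and 2, and SLC16A10, a carrier of aromatic amino acids, with 3 and 3. Of the 10 genes with the most peaks, SYNE1 and SLC16A10 were equal in the lists and the others, with CD109, COL12A1 and MYO6, had more in HL60. The 5 SYNE1 peaks of each list lay at separate positions, while SLC16A10 had 2 places in common, both in its 3′UTR. In DST, 1 of the 4 HL60/MX2 peaks matched an HL60 peak to the base, with a score of 137.0 in HL60 and 365.9 in HL60/MX2.

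The highest score of the HL60 peaks on the chromosome was 3100, in LPA, which encodes apolipoprotein(a) and holds many near-identical kringle repeats. The central 30 nt of that peak (chr6:161045062-161045243) matched 7 places of the genome exactly, so its position within LPA is uncertain. In HL60/MX2 the highest score was 3100 as well, in GCNT2, a glycan-branching enzyme gene (chr6:10586827-10587031), and in PNISR (chr6:99848571-99849506). The central 30 nt of these matched 1 place each.

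Against the rest of chromosome 6, the MHC region was rich in genes and, in HL60, poor in peaks for its exon sequence. It held 282 of the 1048 genes (26.9%), 31.3 genes per Mb against 4.73, and 15.5% of the exon sequence. It held 11.1% (8.55-14.02%) of the HL60 peaks of the chromosome and 13.6% (10.6-17.1%) of the HL60/MX2 peaks, so that the share of exon lay above the first interval and within the second. The density was 71.5 HL60 and 75.04 HL60/MX2 peaks per Mb of exon, which is 68.1% and 86.1% of the density of the rest (105.0 and 87.1). All chromosomes together held 74.3 and 74.7, so the region was near that value and the rest of chromosome 6 above it. A peak was found in 46 MHC genes in HL60 (16.3%, 12.2-21.2%) and in 44 in HL60/MX2 (15.6%, 11.6-20.4%), against 35.9% and 35.6% of the genes of the rest. In both lists a peak was found in 18 MHC genes (6.38%), in HL60 only in 28 (9.93%) and in HL60/MX2 only in 26 (9.22%). The rest of chromosome 6 had 17.6%, 18.3% and 18.02%, and all genes had 11.9%, 14.5% and 16.7%.

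MHC genes were short, their exons measuring 2540 bp at the median against 4538.5 bp on the rest of the chromosome, and 47.5% of them fell among the shortest of 4 equal classes of all genes. In that class, 3.73% (1.22-8.49%) of MHC genes and 15% (10.1-21.1%) of the other chromosome 6 genes had an HL60 peak. The HL60/MX2 values in the class were 7.46% (3.64-13.3%) and 15.6% (10.6-21.7%). In the longest class the MHC values were 38.1% (18.1-61.6%) in HL60 and 57.1% (34.02-78.2%) in HL60/MX2, and those of the rest were 51.1% and 49.3%, with overlapping intervals. The intervals of the shortest class were apart in HL60 and overlapped in HL60/MX2. In the second class it was the reverse, with 24.1% (15.4-34.7%) of MHC genes against 29.5% (23.2-36.5%) in HL60 and 13.3% (6.81-22.5%) against 33.2% (26.6-40.3%) in HL60/MX2. In the next class the intervals overlapped in each list, at 29.5% and 45.3% in HL60 and 25% and 41.8% in HL60/MX2.

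The region was divided by anchor genes into 5 blocks. The extended class I block held 27 HL60 and 23 HL60/MX2 peaks (96.9 and 82.5 per Mb of exon), and the class I block 11 and 11 (63.3 each). The class III block held 7 and 12 peaks (33.6 and 57.7 per Mb), the lowest density of the 5 in each list. The class II block held 9 and 7 (113.0 and 87.9), and the extended class II block 6 and 10 (60.3 and 100.5). The HL60/MX2 share was highest in class III at 63.2% (38.4-83.7%), an interval that held the value over all chromosomes, as did those of the other blocks.

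**Figure D3:**
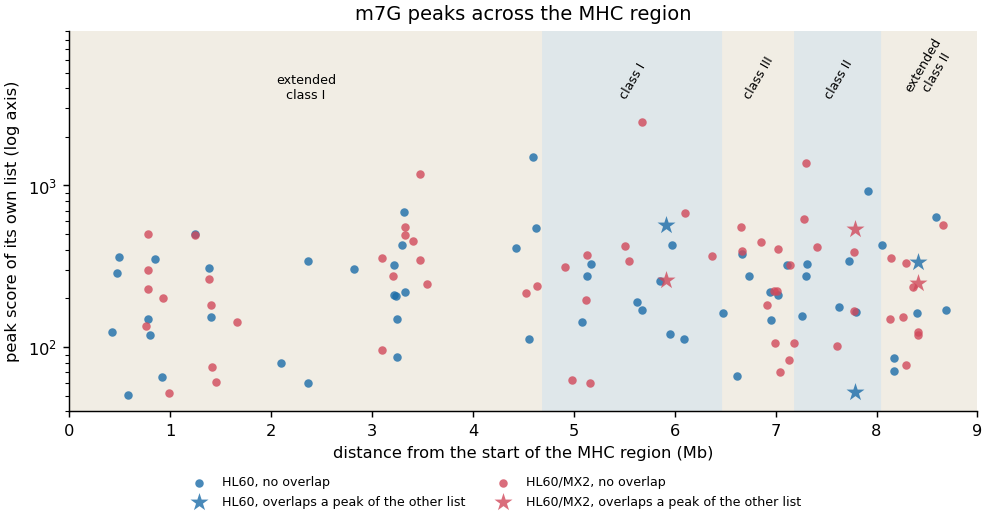
Each point is a peak of the MHC region, placed by its distance from the start of the region (Mb, horizontal axis) and by the authors' score in its own list (vertical log axis), with HL60 in blue and HL60/MX2 in red. Stars mark the 3 overlaps between the lists, and shading separates the 5 blocks. The highest points are MDC1 in HL60/MX2 (2463.7) and GABBR1 in HL60 (1506.6).

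Among the class I genes, peaks were found in the MIC pair. MICB and MICA encode stress ligands of the receptor NKG2D, and MICB had its peak in HL60 (chr6:31478760-31478901, 3′UTR, score 162.7), MICA in HL60/MX2 (chr6:31367561-31367608, score 366.0). The central 30 nt of each of these peaks matched 1 place of the genome.

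Of the 13 class II genes, 5 were listed in HL60 and 3 in HL60/MX2, with 5 peaks each. These are 38.5% and 23.1% of only 13 genes, beside 26.5% and 28.6% of all genes. HLA-DOB, the beta chain of HLA-DO, which moderates HLA-DM, was the only one with a peak in both. HLA-DMA, HLA-DPB1, HLA-DQB1 and HLA-DQB2 were found in HL60 only, and HLA-DQA1 and HLA-DRA in HL60/MX2 only. The HLA-DMA peak lay around the start codon (chr6:32920134-32920238) and scored 928.3, the second highest of the HL60 peaks of the region. The HLA-DPB1 peak covered 663 bp of the 3′UTR (chr6:33055872-33056534, score 430.9). HLA-DRA, the alpha chain that pairs with the HLA-DR beta chains, had its peak at the stop codon (chr6:32411533-32411698, score 414.3). The central 30 nt of a few of these are shown for comparison along the family.
HLA-DPB1 in HL60 (chr6:33056189-33056218, plus strand): gcacccacattacaggaacaggatatgtgc
HLA-DQB1 in HL60 (chr6:32628636-32628659, minus strand): gacctcaagggcctccaccagcag
HLA-DQB2 in HL60 (chr6:32731162-32731191, minus strand): gatgctgagcaccccagtggctgaggccag
HLA-DQA1 in HL60/MX2 (chr6:32605259-32605288, plus strand): gCTGGGggccctcgctctgaccaccgtgat
HLA-DRA in HL60/MX2 (chr6:32411601-32411630, plus strand): ggtctggtgggcatcattattgggaccatc

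HLA-DOB had 1 HL60 peak and 3 HL60/MX2 peaks. The HL60 peak (chr6:32782027-32782378) scored 52.7, near the lowest score of its list. The HL60/MX2 peaks lay in the 3′UTR, at the stop codon and in the CDS, and scored 388.5, 167.7 and 540.6. The last of them, 25 nt long, lay wholly within the HL60 peak. Thus the HL60 peak was among the weakest calls of its list (percentile 1.93). The HL60/MX2 peak within it was among the stronger calls of its own list (percentile 79.4). The shared stretch is 7.10% of the HL60 peak, and the HL60 score belongs to the whole peak.

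The antigen-processing and class III lists were too small to set apart from all genes, of which 26.5% had a peak in HL60 and 28.6% in the HL60/MX2 list. The products of TAP1, TAP2, TAPBP, PSMB8 and PSMB9 cut, carry or help to load peptides for class I. Of these genes, TAP2 had an HL60 peak (score 164.1) and no HL60/MX2 peak was found in the 5. Of 13 class III genes, C4A had a peak in HL60 (chr6:31950495-31950696, score 147.3), and C4B (chr6:31996234-31996309, score 106.6) and C2 (chr6:31913331-31913451, score 181) had one in HL60/MX2. C2 and C4 are complement components. The central 30 nt of the C4A and of the C4B peak each matched 2 places of the genome, so the copy from which these reads came is uncertain.

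The same holds for TNXB, which encodes the matrix protein tenascin X and has a partial copy nearby. An HL60/MX2 peak in TNXB (chr6:32012158-32012312) and another over no protein-coding exon (chr6:31979304-31979458) had the same length of 155 bp, the same score of 222.8 and identical reference sequences. They are shown because the list counts them as separate peaks.
TNXB (chr6:32012221-32012250, minus strand): gttccgggactCTGTAcagcctgacactgt
second place (chr6:31979367-31979396, minus strand): gttccgggactCTGTAcagcctgacactgt

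In the MHC region, the central 30 nt matched more than 1 place in 2 of 54 HL60 peaks (3.70%, 0.452-12.7%) and 6 of 57 HL60/MX2 peaks (10.5%, 3.96-21.5%), against 3.20% and 4.85% of the peaks of the rest. The intervals of the region held the values of the rest. TSBP1 carried 3 HL60 and 2 HL60/MX2 peaks, of which 4 were 21 nt long, as long as its small exons. None of these was shared. The 3 not yet shown are printed whole, as small exons of a single gene.
TSBP1 in HL60 (chr6:32303689-32303709, minus strand): ccggagctacaggacctatca
TSBP1 in HL60 (chr6:32311015-32311035, minus strand): ctttacctcaaggatccatga
TSBP1 in HL60/MX2 (chr6:32284171-32284191, minus strand): gtcagctggcagcacctataa

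In the extended class I block, histone genes were nearly without peaks. Of 51 histone genes on chromosome 6, H2BC15 had an HL60 peak (3′UTR, score 302.4) and none had an HL60/MX2 peak. These were 1.96% and 0% of the list, beside 26.5% and 28.6% of all genes. The median histone gene had 496 bp of exon, and the study isolated mRNA with oligo(dT) beads, which capture poly(A) tails. The part of gene length and of this selection in the count was not tested. In the window from 27 to 28 Mb, 4 HL60 and 0 HL60/MX2 peaks were listed over 27 genes.

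Of the 19 zinc finger genes of the SCAN, ZKSCAN and ZNF families in the region, 5 were listed in HL60 and 5 in HL60/MX2, with 9 and 6 peaks. This share of 26.3% in each list was close to that of all genes (26.5% and 28.6%). ZKSCAN4 and ZSCAN31 had peaks in both lists, ZKSCAN3, ZNF391 and ZSCAN26 in HL60 only, and ZNF322, ZSCAN16 and ZSCAN23 in HL60/MX2 only. Of the 7 butyrophilin genes, which encode relatives of the B7 costimulators, BTN2A2 and BTN3A1 had peaks in both lists and BTN3A3 in HL60/MX2. BTN3A1, required for sensing of phosphoantigens by a class of gamma delta T cells, had an HL60 peak in the 5′UTR (score 152.8) and HL60/MX2 peaks in the CDS (182.1) and the 3′UTR (75.1). Of 9 TRIM genes, several of which lie in the class I block, TRIM10 and TRIM26 were found in both lists, TRIM31 in HL60 and TRIM38 in HL60/MX2. Of 19 olfactory receptor genes, OR2H1 and OR2H2 had a peak in HL60, and OR2A4, outside the region, had peaks in both lists at a sequence that matched 7 places of the genome.

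Peaks over a coding transcript (the longest per gene) were next classed by position, the start codon and the stop codon each being given a class that reached 100 nt to either side. On chromosome 6, 427 HL60 and 379 HL60/MX2 peaks could be placed. The CDS held 64.6% (59.9-69.2%) of them in HL60 and 54.6% (49.5-59.7%) in HL60/MX2. The start codon class took up 6.56% (4.40-9.34%) and 13.2% (9.95-17.02%). The stop codon class held 2.34% (1.13-4.26%) and 5.54% (3.46-8.35%). The 5′UTR held 5.15% and 5.80%, and the 3′UTR 21.3% and 20.8%. Over the other chromosomes, the CDS held 63.6% in HL60 and 59.8% in HL60/MX2, the start codon class 7.09% and 11.8%, and the stop codon class 4.73% and 4.30%.

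In the MHC region 48 HL60 and 55 HL60/MX2 peaks could be placed, and a single class stood apart from the rest of the chromosome in each list. In HL60 it was the 5′UTR, with 8 peaks (16.7%, 7.48-30.2%) against 3.69% (2.03-6.12%). These were in BAG6, BTN3A1, ITPR3, OR2H1, PSORS1C1, TRIM26, ZKSCAN3 and ZSCAN26. The HL60/MX2 list had 3 peaks in this class (5.45%, 1.14-15.1%), in SLC17A2, ZNF322 and ZSCAN31. None of the genes was the same in both.

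In HL60/MX2 it was the stop codon class, with 9 peaks (16.4%, 7.77-28.8%) against 3.70% (1.93-6.38%). These were in ABHD16A, C2, EGFL8, GPX6, HLA-DOB, HLA-DRA, PSORS1C2, SMIM40 and ZSCAN16, with scores from 83.7 in EGFL8 to 673.5 in PSORS1C2. The HL60 list had 2 peaks in this class, in HLA-DQB1 and OR2H2 (4.17%, 0.509-14.3%). The classes take up 5.35% (5′UTR) and 8.41% (stop codon) of the coding transcripts of the MHC genes, and 3.74% and 4.91% of those of the rest. The stop codon value of 8.41% lay within the HL60/MX2 interval of that class in the region. The 5′UTR value of 5.35% lay below the HL60 interval of its class. The genes of these peaks were named after their values were seen, and no test was made.

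**Figure D4:**
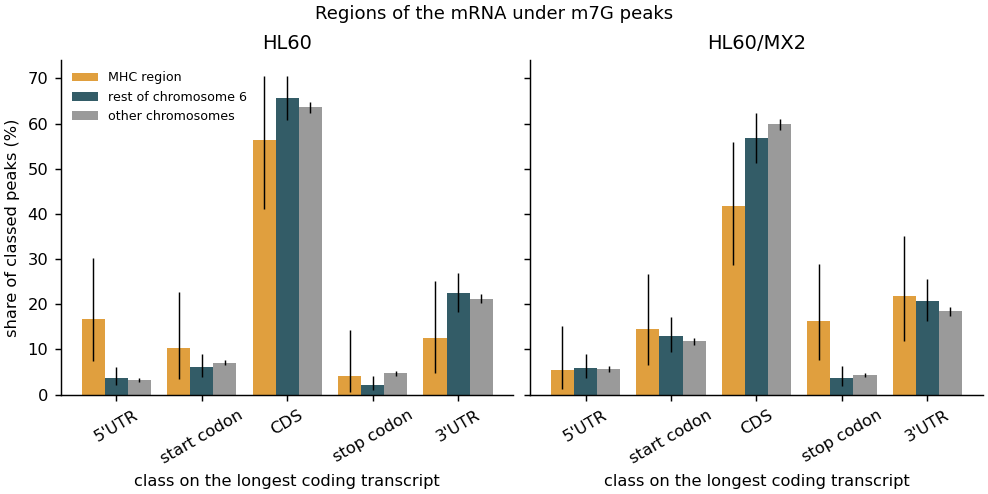
Share of the placed peaks (%, vertical axis from 0) in 5 classes of the longest coding transcript, for HL60 (left) and HL60/MX2 (right), in the MHC region, the rest of chromosome 6 and the other chromosomes. Bars carry exact Clopper-Pearson 95% intervals. The MHC bar rises over the others in the 5′UTR of HL60 (16.7%) and at the stop codon of HL60/MX2 (16.4%).

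The mean GC of the peaks lay closer together between the lists in the MHC region than elsewhere on the chromosome, which was not tested. Outside the region, peaks had a mean GC of 44.7 ± 10.6% (SD, n = 482 peaks) in HL60 and 48.5 ± 12.9% (SD, n = 400 peaks) in HL60/MX2. In the region they had 48.9 ± 8.93% (SD, n = 60 peaks) and 50.7 ± 9.81% (SD, n = 63 peaks). Measured against the exons of their own gene, peaks of the rest were higher by 1.41 points in HL60 and by 4.38 points in HL60/MX2, and the MHC peaks differed by -0.63 and -0.21 points. The SDs are spreads between peaks and not between libraries.

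When genes were divided by exon GC into 5 equal classes of all genes, the HL60/MX2 count over the HL60 count rose with GC on chromosome 6 as on the other chromosomes. From low to high GC it was 0.768, 0.786, 0.929, 1.23 and 1.29. The other chromosomes had 0.862, 0.883, 0.991, 1.28 and 2.04. With the ratios of the other chromosomes applied class by class to the 510 HL60 peaks over exons of chromosome 6, 492.6 HL60/MX2 peaks would have been listed, and 438 were. The same step gave 67.9 for the MHC region, where 59 were listed, and 424.7 for the rest, where 379 were. For chromosome 6 this is an HL60/MX2 share of 46.2% (43.0-49.4%) against 49.1%, which lay within the interval. In each of the 5 classes the interval of the chromosome 6 share also held the share of the other chromosomes. The chromosome 6 share was nevertheless the lower in each class, and the part of GC in the counts was not tested.

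**Figure D5:**
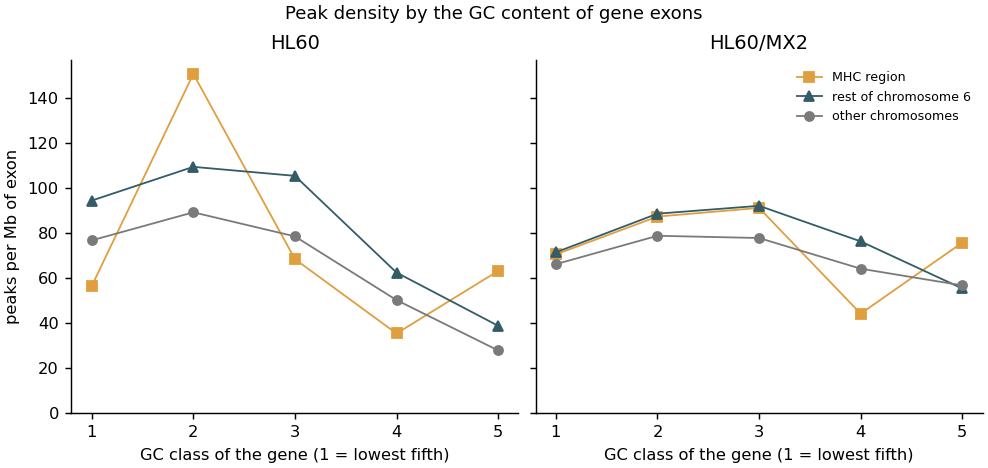
Peaks per Mb of protein-coding exon (vertical axis from 0) in 5 classes of genes by exon GC (1 is the lowest), for HL60 (left) and HL60/MX2 (right), in the MHC region, the rest of chromosome 6 and the other chromosomes. Points have no error bars, since each comes from 1 library. In HL60 the rest of chromosome 6 goes from 109 in class 2 to 38.7 in class 5, and in HL60/MX2 from 88.5 to 55.3.

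Peak lengths had medians of 138 bp in HL60 and 151 bp in HL60/MX2 on chromosome 6, and of 116.5 and 155 bp in the MHC region. A whole exon was covered by 26.0% of the chromosome 6 peaks in HL60 and 25.9% in HL60/MX2. Scores were read only within a list, because their scale is not stated. The median score of chromosome 6 was 209.3 in HL60, where the list had 196.8, and 244.7 in HL60/MX2, where the list had 259.7. In the region the medians were 214.6 and 259.7. Scores at or above percentile 75 of the list were reached by 26.7% (16.1-39.7%) of the MHC peaks in HL60 and 19.05% (10.2-30.9%) in HL60/MX2, against 27.2% and 23.3% of the rest. The intervals of the region held the values of the rest in each list.

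Places shared by the lists were few. Overlaps of at least 1 bp on the same strand joined 38 pairs in 34 genes, 7.01% (5.01-9.50%) of the peaks in HL60 and 8.21% (5.87-11.1%) of those in HL60/MX2, where all chromosomes had 6.13% and 6.09%. Inside the MHC region they were 3 of 60 (5.00%, 1.04-13.9%) and 3 of 63 (4.76%, 0.993-13.3%). The overlaps ran from 3 to 395 bp with a median of 88 bp, the longest in GPLD1 (395 bp) and SNRPC (394 bp). By class, 16 pairs belonged to the CDS, 10 to the 3′UTR, 2 to the 5′UTR, 2 to the start codon and 0 to the stop codon, and 8 could not be placed. In 14 pairs both scores were above the median of their list.

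The shared stretch in MUCL3, a mucin-like gene, covered 74 bp (chr6:30917211-30917284), with scores of 573.1 in HL60 and 259.7 in HL60/MX2. Among the pairs with the same ends, REV3L scored 59.7 and 144.5, and HDAC2 682.5 and 151.0. The peaks of REV3L and HDAC2 covered a whole exon. High scores in both lists were found for CTAGE9 (1399.3 and 717.2), named here after its values were seen, whose central 30 nt matched 5 places of the genome.

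The list of 29 leukaemia-related genes of the chromosome held 10 with an HL60 peak and 16 with an HL60/MX2 peak, of which 8 had both, with 19 and 21 peaks. The shares were 34.5% and 55.2%, and the members were chosen with earlier results of these data known. Among all genes the shares were 26.5% and 28.6%, and the genes of the list were long, with a median of 7300 bp of exon. Those with peaks in both lists included AFDN, ARID1B, BACH2, FYN, HBS1L and IRF4. FYN, a SRC family kinase gene, had 3 HL60 peaks and 1 HL60/MX2 peak, and IRF4, a lymphoid transcription factor gene, had 1 of 10 bp in HL60 and 2 in HL60/MX2 (scores 314.1 and 431.7). In ARID1B a place of 51 bp was shared, with scores of 108.3 and 782.4.

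Found in HL60/MX2 only were, among others, AHI1, CDKN1A, DAXX, EHMT2, FOXO3 and HACE1. CDKN1A, which encodes the cell cycle inhibitor p21, had a peak of 33 bp (chr6:36650475-36650507, score 274.9). FOXO3, a forkhead transcription factor gene, had its peak in the 5′UTR (chr6:108881093-108881218, score 219.3, 77.8% GC). DAXX and EHMT2, of the MHC region, encode a histone chaperone and a histone H3 lysine methyltransferase, and their peaks scored 77.0 and 445.6. HACE1, a ubiquitin ligase gene, had a score of 838. Outside the naming rule, and chosen after the values were seen, ROS1, a receptor tyrosine kinase gene, had 4 HL60 peaks in the CDS (170.9 to 511.5) and none in HL60/MX2, and MYB had 1 HL60/MX2 peak around the start codon (score 163.7) and none in HL60.

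Of 10 drug transport and metabolism genes, 5 were listed in HL60, with 9 peaks, and 2 in HL60/MX2, with 3 peaks. These are 50% and 20% of only 10 genes, where all genes had 26.5% and 28.6%. The shares depend on which genes were listed. TAP2 and ABCF1 were counted, while GSTA2, GSTA4 and GCLC, with peaks in HL60/MX2 only, were left out. Also left out were SLC22A16, with a peak in each list, and SLC22A23, with a peak in HL60 only. SLC22A3, an organic cation transporter gene, had 4 HL60 peaks in the CDS with scores from 75.8 to 315.7 and none in HL60/MX2. SLC22A7, an organic anion transporter gene, had 2 HL60 peaks, and TPMT, whose product methylates thiopurine drugs, had 1 in the 3′UTR (chr6:18128545-18128610, score 218.2). ABCF1, an ATP-binding cassette protein of translation and not of membrane transport, had its peak in HL60/MX2 only (chr6:30550171-30550284, score 341.8).

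Of the 3 genes of the chromosome that the study lists for their sites, MEI4 had no peak in either list. The study lists MEI4 and CPNE5 as up-methylated and SLC22A2 as down-methylated in HL60/MX2. None of the stretches printed below overlaps the site that the study lists in the same gene. The fold changes of the study and the peak numbers here are different measures. CPNE5, a calcium-dependent membrane-binding protein gene, had 1 peak in each list at separate places of its CDS, with a score of 1650.1 in HL60 (chr6:36712059-36712102), the second highest of the HL60 peaks of the chromosome, and 540.6 in HL60/MX2 (chr6:36789890-36789936). SLC22A2, a renal organic cation transporter gene, had 1 HL60 peak (score 222.0) and 2 HL60/MX2 peaks (405.6 and 646.2). Their central 30 nt follow, since the genes are the same and the places are not.
CPNE5 in HL60 (chr6:36712066-36712095, minus strand): agctccccatgtccatcattatcgtcggcg
CPNE5 in HL60/MX2 (chr6:36789899-36789928, minus strand): atgtatacccaagggatggagaacaagcag
SLC22A2 in HL60 (chr6:160668234-160668263, minus strand): aagcacatcgcaaagaaaaatGGAAAatct
SLC22A2 in HL60/MX2 (chr6:160677697-160677726, minus strand): CTGGAtgttggacctattccagtcatcagt
SLC22A2 in HL60/MX2 (chr6:160681621-160681650, minus strand): gcgaatgGGAAGtccctaaacagaactgag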

How the data were processed

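The series comprised 4 libraries, of which the 2 enriched ones have peak lists that were used here. According to the submitters' processing notes and the methods of the study, the authors trimmed reads with cutadapt 1.9.3, aligned them to hg19 with HISAT2 2.0.4 (STAR was used for the input libraries), called peaks with MACS and retained those that overlapped protein-coding exons. The version and settings of MACS are not given in the sources used here. The deposited score of each peak has no stated scale. Where scores of both lists are printed side by side, each is to be read within its own list. They give no measure of a difference between the lines. Since the lists hold no reads, depth is unknown and precision follows from how many peaks were counted.

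Starts were recounted from 1. Peaks were assigned to the GENCODE release 44 protein-coding gene (placed on GRCh37) of largest exon overlap on the same strand, and with equal overlap to the gene with less exon. On chromosome 6, 32 HL60 and 25 HL60/MX2 peaks overlapped no such exon, and 6 and 11 had equal overlaps. Densities used the merged exons of all transcripts. Since cytogenetic bands were not used here, windows of 10 Mb were taken. The MHC blocks end at HLA-F, MICB, NOTCH4 and HLA-DPB1, and these blocks and the GC and exon length classes were chosen after seeing the data. Exact genome matches of the central 30 nt were counted on both strands.

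The members and gene lists were chosen with earlier results of these data known. The genes named were those with a shared peak in the MHC region, up to 12 members with a peak of each gene list in alphabetical order, the 10 genes of highest peak number, the 5 highest scores of the region in each list, the 3 genes whose sites the study lists, and up to 3 leading genes of the 2 windows with the highest and the 2 with the lowest ratio between the lines. A few genes that meet this rule are not reported here. Alternatives changed the score, peak length, overlap, strand, exon definition, region bounds, class rule and window size. Of 2000 simulated peaks, 98.55% were returned to their gene, and all of 1756 simulated region classes were recovered. Python 3.11.15 was used with numpy 2.4.6, scipy 1.17.1, pysam 0.24.0 and matplotlib 3.10.9.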

Additional observations from a re-analysis of the deposited data

How the results depend on the processing

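Over 26 results and 49 alternatives, 42 values moved by less than the counting interval or 1.5 times, and 7 moved by more. Counting only exons of the longest coding transcript raised the density of the MHC region to 99.5 HL60 and 104.5 HL60/MX2 peaks per Mb, and the region then had 60.8% and 77.0% of the density of the rest. Requiring an overlap of at least 50% of both peaks left 17 shared pairs, 3.14% of the HL60 and 3.67% of the HL60/MX2 peaks. With scores at or above the median of the list, peaks were left in 201 genes in HL60, 175 in HL60/MX2 and 72 in both. By construction, the densities rose because fewer bases were counted, and the shared pairs fell because the overlap rule was stricter. The genes fell because fewer peaks were kept. With windows of 5 Mb, HL60 had more peaks in 22 of 35. No paired analysis was possible because each line has 1 enriched library and no replicate number. With 60 and 63 peaks in the MHC region, differences within the intervals given were not detectable.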
